A study of Mus musculus with 3 samples.

Results

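Livers of mice fed a high-fat diet (HF) were set against livers of mice fed a control diet (Control), gene by gene, on 2 of the 3 arrays of the study. A probe set, the group of short probes that reads a transcript, was included when its signal was at least 200 on at least 1 of the 2 arrays, which 16396 of the 45037 probe sets other than Affymetrix controls were. Of these, 14582 reached that signal on both arrays, 1203 in HF only and 611 in Control only. A single gene was named for 14954 of them, several genes for 477, and 965 were not named here. They read 9160 of the 18193 genes with a named probe set, 3680 genes through 2 or more probe sets and 5480 through 1.

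All mice were male C57BL/6J. The Control mice received D12450B, with 10% of energy from fat, and the HF mice D12492, with 60%, from 6 weeks of age for 15 weeks, and the labels' age of 21 months does not match these times and was not used. The Control diet also held more sucrose, so fat and sugar differed together between the groups. Per the study, the mice were fasted for some hours before tissues were taken, and the fast before the final blood sampling lay in the morning. The cDNA of the mice of a group was mixed and hybridised to 1 Affymetrix mouse genome array. There was thus 1 array per group, the array differences have no replicate check, and no p-value is given. By quantitative PCR in individual mice, the study reported Hamp and genes of β-oxidation and the respiratory chain as lower in HF liver than in Control. Those values were not used here. Values of the third array, from mice fed the high-fat diet with sodium ferrous citrate (HF+SFC), are given only beside those of the other two for a few genes.

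Values are MAS5 signals, which summarise the brightness of a probe set on a linear scale. The log2 ratio of a gene is the median over its probe sets of log2 HF signal minus log2 Control signal, so a value of 1 is a doubling in HF. The SD over the probe sets of a gene is given as the error in place of a replicate error, and a log2 ratio without an SD rests on 1 probe set. Signals are those of the brightest probe set of the gene. A gene was counted as higher or lower when its log2 ratio was at or past 1.5-fold, the threshold of the study, and no probe set of it lay on the other side of 0. In a whole liver, fewer cells of a type and less RNA per cell cannot be told apart.

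In the fed and in the briefly fasted state the liver switches between storing and burning fat. Insulin and the transcription factors SREBP1c and ChREBP raise fatty acid synthesis, SREBP2 raises cholesterol synthesis when sterols are scarce, and PPARα, activated by fatty acids that reach the liver in fasting, raises genes of fatty acid oxidation and ketogenesis. A diet rich in fat adds storage of triglyceride in lipid droplets, and long feeding is known to bring macrophages, matrix deposition and a shift of the daily rhythm of liver genes.

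HF exceeded Control by 1.5-fold or more in 868 of the 9160 genes (9.48%), and Control exceeded HF by as much in 417 (4.55%). Among the 3680 genes with 2 or more probe sets, all of them were at least 1.5-fold higher in 130 (3.53%) and at least 1.5-fold lower in 73 (1.98%). A further 18 genes passed 1.5-fold by their median while a probe set lay on the other side of 0, and they were not counted. At 2-fold the counts were 271 higher and 118 lower, and at 4-fold 52 and 20. The median log2 ratio over all genes was 0.02 and 85.8% of genes lay within 1.5-fold.

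How firmly a value stands depended on the signal. The pooled SD between probe sets of one gene was 0.42 on the log2 scale where the mean signal was under 500, 0.20 between 500 and 2000 and 0.13 at 2000 or more. The share of higher genes was 15.5% where the brighter of the 2 arrays read 200 to 500, 7.53% at 500 to 2000 and 6.10% at 2000 or more, whereas the share of lower genes was 4.88%, 3.67% and 5.52%. The excess of higher over lower genes thus lay mostly among dim genes. Of the higher genes 342 read under 200 in Control, and of the lower genes 88 read under 200 in HF. For such a gene named here, the signals or a fold written as "at least", with the dim array set to 200, stand in place of the log2 ratio. With every dim value set to 200 the counts were 585 higher and 330 lower. Higher genes made up 67.5% of the counted genes, but 54.4% after lowess scaling, with 650 higher and 545 lower, and 57.2% without the filter on signal.

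**Figure D1:**
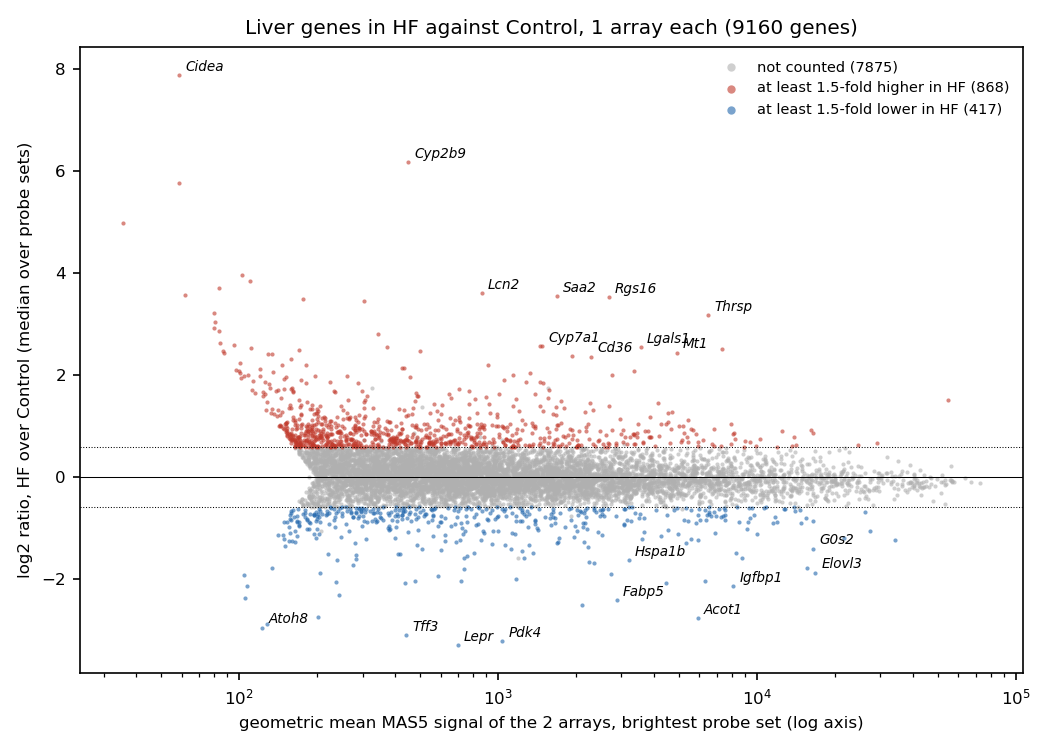
Log2 ratio of HF over Control (y axis) against the geometric mean signal of the 2 arrays (x axis, log scale) for 9160 liver genes, 1 point per gene. Red points are the 868 higher and blue points the 417 lower genes, dotted lines mark 1.5-fold, and the spread widens towards low signals.

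The genes with the largest differences were looked for among those with 2 or more probe sets, all past 1.5-fold in one direction. Rgs16, a brake on G protein signalling, was at 3.54 ± 0.16 (SD, n = 3), with signals of 721 in Control and 9958 in HF. Cyp2b10, a cytochrome P450, had a larger ratio but was dim, at 48.5 in Control and 249 in HF, which makes it at least 1.25-fold higher. The lowest was Lepr, the leptin receptor, at -3.29 ± 0.86 (SD, n = 3), with signals of 2409 in Control and 203 in HF, followed by the pseudogene Serpina4-ps1 at -2.52 ± 0.28 (SD, n = 3) and the fatty acid binding protein Fabp5 at -2.42 ± 0.04 (SD, n = 2). The differences of Rgs16, Lepr, Serpina4-ps1 and Fabp5 were several times the SD between probe sets, which the way they were chosen favours. That SD holds no variation between mice, pools or arrays. On the third array the HF+SFC signals were 7166 for Rgs16, 209 for Lepr and 1254 for Fabp5.

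Further genes chosen in the same way were Ildr2, higher at 1.84 ± 0.41 (SD, n = 3), and Serpinb8, Osbpl3 and Stimate, which were under 200 in Control. Serpinb8, an intracellular protease inhibitor, read 58.3 in Control and 310.2 in HF, at least 1.55-fold higher. Osbpl3, an oxysterol-binding protein, was at least 2.5-fold and Stimate, which regulates calcium entry, at least 1.45-fold higher. Lower were Mbd1, which binds methylated DNA, at -1.68 ± 0.68 (SD, n = 5), Rab30, a GTPase of the Golgi, at -1.59 ± 0.79 (SD, n = 2), Foxq1, a forkhead factor, at -1.51 ± 0.14 (SD, n = 2) and Rgs3, a regulator of G protein signalling like Rgs16, at -1.48 ± 0.45 (SD, n = 2).

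Described by gene lists, the highest medians among lists of 10 or more genes were those of cholesterol synthesis at 0.70 and of recruited and lipid-laden macrophages at 0.69, and the lowest were those of PPARα targets at -0.75 and acyl-CoA thioesterases at -0.52, beside 0.02 over all genes. Under the alternative settings the cholesterol synthesis median fell as low as 0.62 and the macrophage median as low as 0.45. Lists share genes, so they are not independent of each other. The counts of each list below stand beside 9.48% higher and 4.55% lower over all genes.

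**Figure D2:**
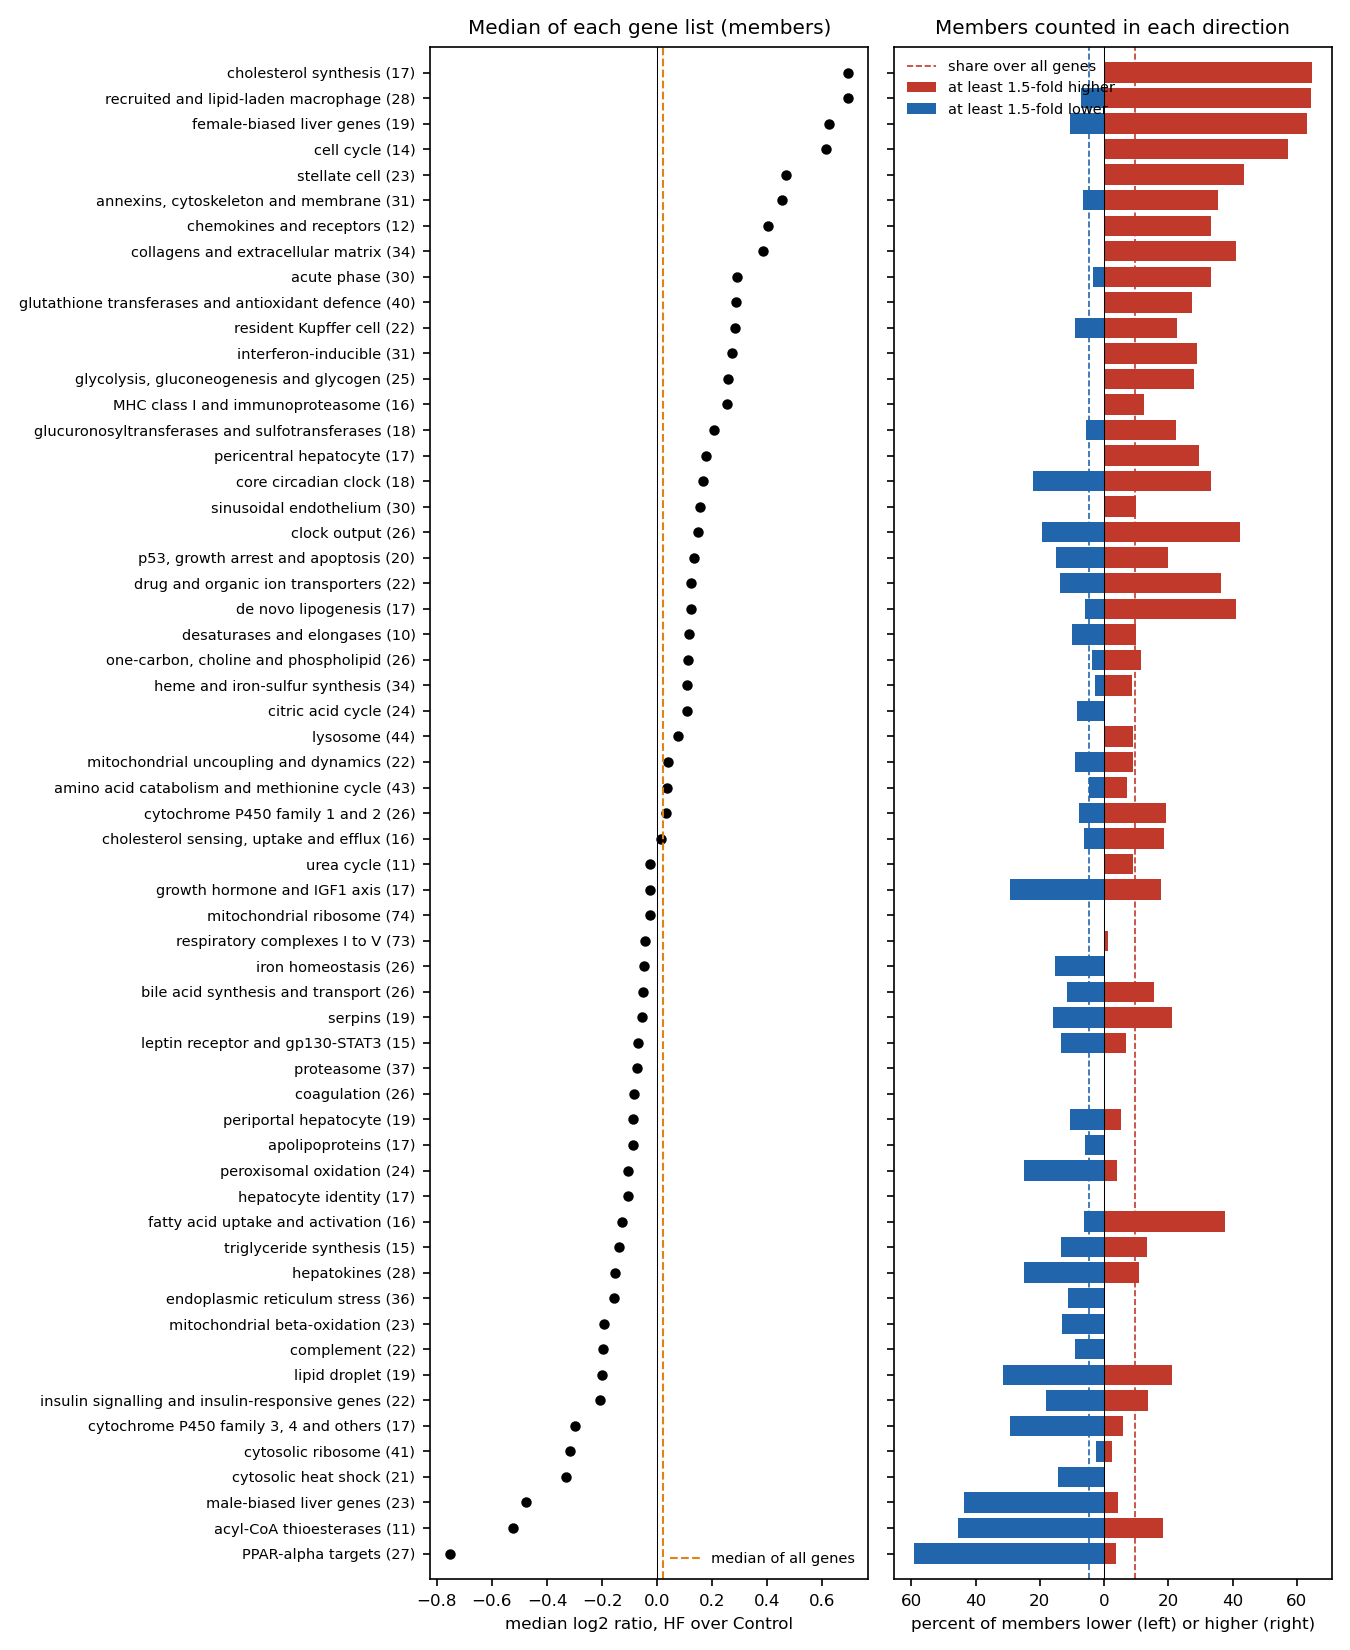
Left, median log2 ratio of HF over Control for each gene list with 10 or more genes read (number in parentheses; dashed line, median of all genes). Right, percent of each list at least 1.5-fold lower (blue, to the left) or higher (red, to the right), with dashed lines at the shares over all genes, 4.55% and 9.48%. Cholesterol synthesis and recruited macrophage lists lie at the top and PPARα targets at the bottom.

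The upstream sequences of a few genes are given first, because they belong to classical targets of known regulators. RefSeq windows from 250 bases before to 50 after the transcription start (assembly GRCm38.p6) were searched on both strands, and the stretches below end at the base before the start, except that of Per3, which ends further upstream. For 14 of the 17 cholesterol synthesis genes a window was at hand, and 14 of these held CCAAT, the box bound by NF-Y, a partner of SREBP factors, beside 42.6% of the 7520 genes read here with a window. The box was also in 26 of 32 endoplasmic reticulum stress genes, a list with no higher member. The core of the sterol element, TCACNCCAC, where N is any base, was in 1 of the 14, Hmgcs1, and in 1 of 16 fatty acid synthesis genes, which was not among the higher ones, beside 1.46%. Capitals mark CCAAT or its reverse complement in Msmo1 and Idi1, and the sterol element core in Hmgcs1.
Msmo1, chr8:64733579-64733778 on the minus strand: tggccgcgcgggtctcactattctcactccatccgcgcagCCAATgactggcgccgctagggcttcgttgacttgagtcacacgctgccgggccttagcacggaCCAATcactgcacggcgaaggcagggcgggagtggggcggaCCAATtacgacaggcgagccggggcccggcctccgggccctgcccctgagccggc
Idi1, chr13:8885406-8885605 on the plus strand: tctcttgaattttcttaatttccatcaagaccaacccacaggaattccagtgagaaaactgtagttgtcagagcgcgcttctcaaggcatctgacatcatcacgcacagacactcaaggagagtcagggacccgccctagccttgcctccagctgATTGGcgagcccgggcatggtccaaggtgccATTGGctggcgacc
Hmgcs1, chr13:119690151-119690350 on the plus strand: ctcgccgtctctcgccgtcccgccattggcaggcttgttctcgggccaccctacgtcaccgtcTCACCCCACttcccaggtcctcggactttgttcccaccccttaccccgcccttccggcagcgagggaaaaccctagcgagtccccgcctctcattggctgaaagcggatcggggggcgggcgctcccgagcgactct

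Clock and heat shock genes are shown because their regulators bind well-known elements. The E-box CACGTG, which BMAL1 and CLOCK bind, was in the windows of 4 of 15 core clock genes and of 7 of 23 clock output genes, beside 12.3% of genes read here. Of the clock output genes with a window, 0 of 9 higher and 1 of 5 lower ones held it, and of the core genes 2 of 4 and 1 of 4. The D-box TTATGTAA, bound by DBP and its relatives, was in 1 of the 15 and 1 of the 23, beside 0.705%. GAANNTTC, the inverted repeat in heat shock elements, was in 11 of 18 heat shock genes, beside 7.07%, namely in the 3 that were lower in HF and in 8 that were not. These matches describe letters in a window and do not show that a factor was bound. Capitals mark the E-boxes in Ciart, the D-boxes in Per3, and the heat shock repeat in Hspa1b and, as a gene that stayed within 1.5-fold, Hspb1.
Ciart, chr3:95882229-95882428 on the minus strand: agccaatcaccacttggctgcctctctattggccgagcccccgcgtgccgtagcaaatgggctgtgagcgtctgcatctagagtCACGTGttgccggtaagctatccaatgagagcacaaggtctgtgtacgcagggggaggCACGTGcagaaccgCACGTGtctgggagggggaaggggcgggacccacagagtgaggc
Per3, chr4:151044766-151044915 on the minus strand: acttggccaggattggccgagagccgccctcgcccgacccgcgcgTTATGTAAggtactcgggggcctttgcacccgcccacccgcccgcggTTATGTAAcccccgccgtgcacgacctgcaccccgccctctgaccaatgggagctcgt
Hspa1b, chr17:34959239-34959438 on the minus strand: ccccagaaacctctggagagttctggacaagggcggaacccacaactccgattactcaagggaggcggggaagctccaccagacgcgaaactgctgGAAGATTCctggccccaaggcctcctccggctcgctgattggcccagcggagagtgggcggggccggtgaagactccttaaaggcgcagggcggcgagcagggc
Hspb1, chr5:135887719-135887918 on the plus strand: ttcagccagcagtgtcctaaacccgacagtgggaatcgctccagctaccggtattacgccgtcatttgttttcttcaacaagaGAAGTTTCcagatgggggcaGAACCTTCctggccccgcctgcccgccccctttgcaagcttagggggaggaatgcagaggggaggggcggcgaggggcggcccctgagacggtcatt

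Most targets of PPARα read were lower in HF. Of 27 read, 16 were at least 1.5-fold lower, beside 4.55% of all genes, 1 was higher, and 25 lay below 0, with a median log2 ratio of -0.75. The mRNA of the receptor itself (Ppara) differed little, at -0.28 ± 0.08 (SD, n = 3), with signals of 7231 in Control and 5964 in HF.

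The lowest of them was Pdk4, a kinase that keeps pyruvate out of the citric acid cycle, with signals of 3165 in Control and 339.6 in HF and a log2 ratio of -3.22. Ehhadh, the bifunctional enzyme of peroxisomal β-oxidation, read 28825 in Control and 8432 in HF, and Slc22a5, the carnitine transporter, 5197 in Control and 1449 in HF. Carnitine carries fatty acids into mitochondria, and Crat, which moves acetyl groups on and off it, was 2.79-fold lower, at -1.48 ± 0.37 (SD, n = 3). The fasting hormone Fgf21 read 1381 in Control and 397 in HF. The ω-hydroxylases Cyp4a14 and Cyp4a31, which oxidise fatty acids at the methyl end, were at -1.19 and -1.45 ± 0.41 (SD, n = 2). The exception in the other direction, Cidea, is described with the lipid droplet genes.

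The acyl-CoA thioesterases, which release free fatty acids from coenzyme A, split by member. 5 of 11 were lower and 2 higher. The cytosolic Acot1 read 15460 in Control and 2265 in HF, the lowest of the family at -2.77, and its neighbours in the gene cluster were lower too, Acot2 at -1.30 ± 0.29 (SD, n = 2), Acot3 at -1.08 and Acot4 at -0.85 ± 0.09 (SD, n = 2). Members of this cluster are close in sequence and their probes may share signal. Acot8, the peroxisomal enzyme, was at -0.75. By contrast Acot9 and Acot11, read at under 500 on both arrays, were at 0.86 and 0.84.

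Enzymes of mitochondrial β-oxidation itself moved less than the PPARα targets around them. Of 23, 3 were lower and 0 higher, at a list median of -0.19. Cpt2, the inner carnitine palmitoyltransferase, was at -0.75, and Mlycd, which removes the inhibitor malonyl-CoA, at -0.61. The gatekeeper Cpt1a was at -0.19 ± 0.05 (SD, n = 3), with signals of 12723 in Control and 10668 in HF, and the chain-length dehydrogenases Acadm and Acadl were at -0.11 and -0.09. In peroxisomal oxidation 6 of 24 were lower and 1 higher, with Hacl1, which cleaves α-oxidised fatty acids, at -0.89, Crot, the peroxisomal carnitine octanoyltransferase, at -0.68 and Pex11a, which drives peroxisome division, at -0.90 ± 0.07 (SD, n = 2). In the citric acid cycle 20 of 24 genes lay above 0, with a median of 0.11, and 0 were higher. The 2 lower ones were Fh1 at -0.63 and Ogdh at -0.68 ± 0.73 (SD, n = 2), an SD larger than its log2 ratio.

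Lipid droplet genes divided into a higher and a lower group. Of 19, 4 were higher and 6 lower, and the median was -0.20. The higher ones were Cidea, Cidec, Plin4 and Fitm1. Cidea and Cidec, which fuse droplets, read 3.81 in Control and 897 in HF and 372 in Control and 988 in HF, the first at least 4.49-fold and the second 2.65-fold higher, and Plin4, a coat protein of fat cell droplets, read 491 in Control and 1032 in HF. Fitm1, which takes part in droplet formation and is best known from muscle, was at 0.94.

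The lower ones included coat and lipolysis genes of hepatocytes. Plin2, the main droplet coat protein of hepatocytes, read 39601 in Control and 19025 in HF. Plin5, a coat protein of tissues that oxidise fat, read 8373 in Control and 3734 in HF, at -1.20 ± 0.06 (SD, n = 2), and G0s2, an inhibitor of the triglyceride lipase ATGL, 26842 in Control and 10153 in HF. Hilpda, a second such inhibitor, was at least 1.42-fold lower, Fitm2 was at -0.86, and Mgll, the monoacylglycerol lipase, at -0.68 ± 0.03 (SD, n = 3). ATGL itself, Pnpla2, was at -0.42. The fat cell markers Adipoq, Lep and Retn read under 200 on both arrays, at most 30.5, 11 and 50.4, while 5 of the 7 adipocyte genes read were higher, all of them genes that liver can also express. The summed signal of the list was 83523 in Control and 92635 in HF, most of it from Car3, carbonic anhydrase 3, with 51473 in Control and 58796 in HF, whose probe sets ranged from 0.19 to 3.12.

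Genes that bring fatty acids into the cell were higher in part. 6 of 16 were higher and 1 lower. Cd36, a fatty acid translocase, read 1012 in Control and 5213 in HF, at 2.36 ± 0.23 (SD, n = 3), and Pparg, the regulator of fat storage that acts on it, read 84.9 in Control and 388 in HF, at least 1.94-fold higher. Vldlr, a receptor for triglyceride-rich particles, was at least 2.14-fold higher. Fabp4, the fat cell fatty acid binding protein, was at 1.43 ± 0.21 (SD, n = 2), Lpl, lipoprotein lipase, at 1.23 ± 0.67 (SD, n = 2), and the intestinal form Fabp2 at 0.74, in contrast to Fabp5, which read 6587 in Control and 1259 in HF. In triglyceride synthesis Mogat1, which makes diacylglycerol from monoacylglycerol, was at least 2.03-fold higher, Lpin1, a phosphatidate phosphatase, was at 1.04 ± 0.06 (SD, n = 2), and Dgat2, which adds the last acyl chain, was at 0.49 ± 0.16 (SD, n = 2), within 1.5-fold, whereas Gpat4 and Agpat2, earlier acyltransferases, were at -0.67 and -0.59.

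Fatty acid synthesis genes were higher in part. Of 17 genes, 7 were higher and 1 lower, although the median was 0.12. Thrsp, the Spot 14 protein that promotes lipogenesis, read 2241 in Control and 18804 in HF, at 3.18 ± 0.16 (SD, n = 2), and its partner Mid1ip1, which activates acetyl-CoA carboxylase, read 764 in Control and 2790 in HF. Srebf1, which encodes SREBP1, read 3038 in Control and 7338 in HF. Fasn, fatty acid synthase, was at 0.85, Acly, which makes cytosolic acetyl-CoA, at 0.73 ± 0.08 (SD, n = 3), Pgd, an NADPH source, at 1.02 ± 0.10 (SD, n = 4), and Pklr, liver pyruvate kinase, at 0.68 ± 0.24 (SD, n = 3).

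Other members stayed within 1.5-fold. Mlxipl, which encodes ChREBP, was at -0.37, Nr1h3, the liver X receptor α, at 0.01, Acss2, which activates acetate, at 0.11, Acacb, acetyl-CoA carboxylase 2, at -0.18 and Me1, malic enzyme, at -0.42 ± 0.10 (SD, n = 2). Elovl6, which elongates palmitate, was at 0.12 ± 0.09 (SD, n = 2), and the desaturase Scd1 at -0.53 ± 0.49 (SD, n = 2), with signals of 56769 in Control and 49892 in HF. Insig2, which retains SREBP in the endoplasmic reticulum and is repressed by insulin, was lower, at -0.89 ± 0.10 (SD, n = 3). Scd2, the desaturase of other tissues, was at least 1.53-fold higher. Elovl3, an elongase of saturated long chains with a male-biased and daily pattern, read 32082 in Control and 8770 in HF, at -1.87.

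**Figure D3:**
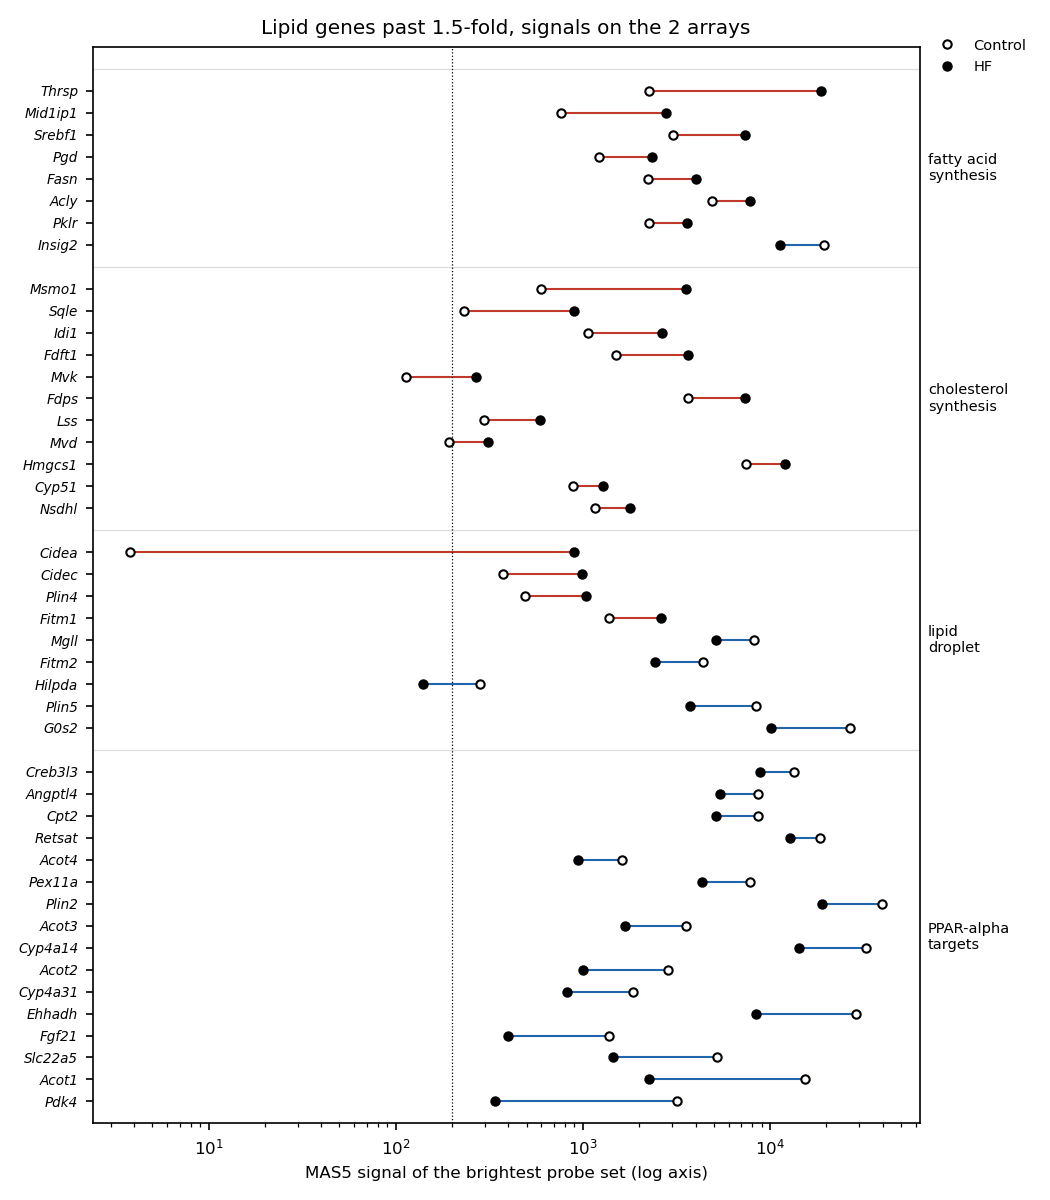
Signals of the brightest probe set in Control (open circles) and HF (filled circles) on a log axis for lipid genes past 1.5-fold, grouped by list; red lines join genes higher in HF, blue lines genes lower, and the dotted line marks a signal of 200. Genes within 1.5-fold are left out, and Cidea, also a PPARα target, is drawn with the droplet genes, which lie on both sides.

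Cholesterol synthesis genes were higher along most of the way to lanosterol and in part after it. Of 17, 11 were higher, beside 9.48% of all genes, 0 were lower and 14 lay above 0. In pathway order, Hmgcs1, which makes HMG-CoA, was at 0.70 ± 0.11 (SD, n = 4), Mvk, mevalonate kinase, at least 1.33-fold higher, Pmvk, phosphomevalonate kinase, at 0.03, Idi1, the isopentenyl isomerase, at 1.37 ± 0.07 (SD, n = 2) and Fdps, farnesyl diphosphate synthase, at 1.0. Fdft1, squalene synthase, was at 1.32 ± 0.08 (SD, n = 2), and Sqle, which commits squalene to sterols, read 232 in Control and 901 in HF. After lanosterol, Cyp51 was at 0.64 ± 0.16 (SD, n = 2) and Msmo1, the C4 methyl oxidase, was the highest of the list, with signals of 594 in Control and 3551 in HF and 7423 in HF+SFC. The other genes after lanosterol were Nsdhl, which removes the C4 carbons, at 0.62, past 1.5-fold, and, within it, Dhcr7, which makes cholesterol itself, at 0.47, Sc5d at 0.25 ± 0.06 (SD, n = 3), Tm7sf2 at -0.01, Ebp at -0.07 and Hsd17b7 at -0.53 ± 0.02 (SD, n = 3).

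The sensors of the pathway differed among themselves. Insig1, itself a target of SREBP, read 2214 in Control and 4188 in HF, opposite to Insig2. Stard4, a cytosolic cholesterol carrier under SREBP2, was at 0.77 ± 0.22 (SD, n = 3), Abcg1, which exports cholesterol, at 0.79, and Srebf2, which encodes SREBP2, at 0.02 ± 0.07 (SD, n = 2). HMG-CoA reductase and the LDL receptor were not analysed here.

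In bile acid synthesis Cyp7a1, the rate-limiting 7α-hydroxylase, read 595 in Control and 3679 in HF, at 2.56 ± 0.09 (SD, n = 2), whereas Cyp7b1 of the alternative route read 17416 in Control and 11239 in HF, at -0.66 ± 0.04 (SD, n = 2). Cyp8b1, which directs the product to cholic acid, was at -0.05, Nr0b2, the repressor SHP, at -0.37, and Akr1d1, the 5β-reductase, at 0.87 ± 0.01 (SD, n = 2). Among the transporters Abcc3, which returns bile acids to blood, was at 1.45, Slco1a4, an uptake carrier, at 1.90, and a related carrier, Slco1a1, at -1.12 ± 0.15 (SD, n = 2), and the export pump Abcb11 was at -0.54. The list had 4 higher and 3 lower of 26, and its median of -0.05 turned positive under quantile scaling. Apolipoproteins had a median of -0.09, positive under lowess scaling, and 1 of 17 was lower, Apom, a carrier of sphingosine 1-phosphate, at -0.77 ± 0.08 (SD, n = 2).

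In glucose metabolism 7 of 25 genes were higher, 0 lower and the median was 0.26. Slc2a2, the glucose transporter of hepatocytes, read 11668 in Control and 22300 in HF, Slc37a4, which brings glucose 6-phosphate to the site of its hydrolysis, 4366 in Control and 7795 in HF, and Gbe1, the glycogen branching enzyme, 2771 in Control and 5214 in HF. Gyg, which primes glycogen, was at 1.0 ± 0.09 (SD, n = 2). The gluconeogenic G6pc and Pck1 stayed within 1.5-fold, at -0.47 and -0.27 ± 0.01 (SD, n = 2).

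Several genes that insulin represses were lower. Igfbp1 and Igfbp2, which bind insulin-like growth factors, read 16981 in Control and 3877 in HF and 15262 in Control and 5054 in HF, and Irs2, an insulin receptor substrate, read 500.2 in Control and 151 in HF, at least 2.5-fold lower. Irs1 was at -0.44, and Sesn1, a target of FOXO factors and p53, was higher, at 1.24 ± 0.34 (SD, n = 3). In all, 4 of the 22 genes of this list were lower and 3 higher. In amino acid metabolism 3 of 43 were higher and 2 lower, 6.98% and 4.65%, not above or near the 9.48% and 4.55% of all genes. Csad, which makes hypotaurine on the way to taurine, read 9107 in Control and 2165 in HF. Prodh, proline dehydrogenase, was at 0.79 and Gpt2, the mitochondrial alanine transaminase, at 0.63 ± 0.08 (SD, n = 4). In the urea cycle the median was -0.02, of the other sign after quantile or lowess scaling. The 1 counted gene of 11, 9.09% and near the share over all genes, was the ammonia channel Rhbg, at 1.08.

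In these male mice, male-biased liver genes were lower and female-biased genes higher in part. In rodents the pulsed release of growth hormone in males keeps a set of male-biased genes on and female-biased genes off. Of 23 male-biased genes 10 were lower and 1 was higher, with 19 below 0 and a median of -0.48. Of 19 female-biased genes 12 were higher and 2 lower, with a median of 0.63.

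Among the male-biased genes Hsd3b5, a steroid reductase, read 7279 in Control and 3355 in HF, Ugt2b38, a glucuronosyltransferase, 896 in Control and 214 in HF, and C8b and C6, parts of the membrane attack complex, 8306 in Control and 3397 in HF and 6501 in Control and 3165 in HF. Serpina12, the adipokine vaspin, was at -0.65 and Cyp4a12a at -0.59, whereas Cyp2d9 was at 0.02. The male-biased gene that was higher was Bcl6, a repressor of female-biased genes, at 1.01 ± 0.14 (SD, n = 2). Of the 12 higher female-biased genes 6 read under 200 in Control. Cyp2b9 read 52.8 in Control and 3810 in HF, at least 19.1-fold higher, Slc22a27, an organic anion transporter, 26.1 in Control and 404 in HF, at least 2.02-fold, and Hao2, a hydroxy acid oxidase, 71.0 in Control and 356 in HF. Atp6v0d2, a proton pump subunit that macrophages also express, was at least 1.5-fold higher, and Cux2 and Tox, female-biased nuclear factors, at least 1.44-fold and 1.53-fold. The lower ones, Acot3 at -1.08 and Acot4 at -0.85, are also in the PPARα list, and Cd36 and Lpl, at 2.36 and 1.23, are in the uptake list.

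In the growth hormone pathway the receptor Ghr was at 0.07 ± 0.12 (SD, n = 3), Stat5b, which carries its signal to the nucleus, at 0.19 ± 0.09 (SD, n = 2) and Igf1, its main product, at -0.07 ± 0.16 (SD, n = 4), all within 1.5-fold. Feedback genes were lower or below 0. Cish read 1269 in Control and 608 in HF, Socs3 was at -0.95 ± 0.22 (SD, n = 3), and Socs2 at -0.54 ± 0.12 (SD, n = 2), within 1.5-fold. Onecut1, the factor HNF6, read 1349 in Control and 553 in HF. The list had a median of -0.03, of the other sign after quantile or lowess scaling. In the leptin and gp130 list the leptin receptor stood out by its fold, 9.78-fold lower, while the shared subunit Il6st was at -0.06 ± 0.13 (SD, n = 4), Stat3 at -0.27 ± 0.05 (SD, n = 2) and Il6ra at 0.68 ± 0.16 (SD, n = 2). The probe sets of Lifr disagreed, from -1.28 to 0.01.

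Drug-metabolising genes differed by family. In cytochrome P450 families 1 and 2, 5 of 26 were higher and 2 lower, with a median of 0.03. Cyp2b9 read 52.8 in Control and 3810 in HF, and Cyp2b10, the standard target of the receptor CAR, 48.5 in Control and 249 in HF. Cyp2c38 read 915 in Control and 2678 in HF, and Cyp2c23, an epoxygenase, 12453 in Control and 7124 in HF. The abundant Cyp2e1, Cyp1a2 and Cyp2c29 were at -0.06, -0.22 and -0.06. Genes of one P450 subfamily are close in sequence, so that a probe set may read several of them. In the families 3, 4 and others, a list that also holds Alas1 and Ahr, 5 of 17 genes were lower and 1 higher. Cyp26b1, which clears retinoic acid, was at least 2.19-fold lower, Cyp4f13 was at -0.72, and Cyp3a11 was at 0.07. The higher one was the aryl hydrocarbon receptor Ahr, which read 1047 in Control and 2948 in HF.

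Conjugation and antioxidant genes lay mostly above 0. Of 40 genes of glutathione transfer and antioxidant defence 11 were higher and 0 lower, at a list median of 0.29. The metallothioneins Mt1 and Mt2, which bind zinc and copper and also rise in the acute phase, read 2103 in Control and 11427 in HF and 842 in Control and 4399 in HF. Gstm3 was at 1.45 ± 0.37 (SD, n = 2), Gstt3 at 1.39, Mgst3, a membrane-bound transferase, at 1.0, and Sod3, the extracellular superoxide dismutase, at 0.91 ± 0.22 (SD, n = 2). The NRF2 targets Nqo1, Gclc and Hmox1, heme oxygenase 1, stayed within 1.5-fold, at 0.44, 0.18 ± 0.04 (SD, n = 2) and 0.01. Of 18 glucuronosyltransferase and sulfotransferase genes 4 were higher, led by Sult1b1 at 0.85, and 1 was lower. Among 22 transporters 8 were higher and 3 lower. Slc16a12, a creatine transporter, read 766 in Control and 1893 in HF, Slc13a3, a dicarboxylate carrier, was at 1.19 ± 0.20 (SD, n = 2), and Slco2a1, which takes up prostaglandins, at -1.26 ± 0.41 (SD, n = 4).

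Clock genes differed in both directions between the 2 pools. In the clock, BMAL1 (the product of Arntl) and CLOCK drive the Per and Cry genes, which repress them, and the D-box factors DBP and TEF, whose counterpart NFIL3 represses the same sites. Of 18 core genes 6 were higher and 4 lower, beside 9.48% and 4.55% of all genes, with a median of 0.17. Dbp read 1406 in Control and 5398 in HF, at 2.01 ± 0.10 (SD, n = 2), Tef 1947 in Control and 3875 in HF and Per2 167 in Control and 536 in HF. Per3 and Ciart, a repressor of BMAL1 and CLOCK, were under 200 in Control and at least 1.94-fold and 1.57-fold higher, and Bhlhe40 was at 1.39.

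The mRNAs of BMAL1 and CLOCK themselves were lower. Arntl read 494 in Control and 163 in HF, at least 2.47-fold lower, Clock was at -0.77 ± 0.22 (SD, n = 3), Nfil3 read 1694 in Control and 674 in HF, and Cry1 was at -0.74. Per1 and Nr1d1, the repressor REV-ERBα, were at 0.17 and -0.17, and Nr1d2 at 0.52 ± 0.00 (SD, n = 2). In HF+SFC the signals were 6891 for Dbp, 449 for Per3, 228 for Arntl and 619 for Nfil3. The study places the fast before blood sampling in the morning and gives no order of collection of the groups. With 1 pool per group, a difference in the time of collection and a difference in the clock itself cannot be told apart.

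Genes known to follow the clock or the daily feeding rhythm also lay on both sides, 11 of 26 higher and 5 lower. Rgs16 read 721 in Control and 9958 in HF, and Upp2, uridine phosphorylase 2, 1544 in Control and 7243 in HF. Usp2, a deubiquitinase, was at 1.72 ± 0.01 (SD, n = 2), Wee1, a kinase that delays mitosis, at 2.15, Nampt, the NAD-producing enzyme, at 0.73 ± 0.10 (SD, n = 2) and Noct, nocturnin, at 0.74. The lower ones were E2f8, a cell cycle repressor, with signals of 1152 in Control and 300.0 in HF, Alas1, the first enzyme of heme synthesis, with 19892 in Control and 13558 in HF in the brightest probe set, which lay within 1.5-fold while the other was at -1.18, Cys1, cystin 1, at -0.70, and 2 heat shock genes. Of the lists above, cholesterol synthesis, Cyp7a1, Elovl3 and several PPARα targets are also known to vary over the day, and how far the clock position bears on them was not tested.

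Heat shock genes lay mostly below 0. 17 of 21 were below 0, 3 were lower and 0 higher, with a median of -0.33. Hspa1b, inducible HSP70, which has a near-identical copy in Hspa1a that its probes may also read, was at -1.62 ± 0.11 (SD, n = 3) with signals of 5879 in Control and 1743 in HF. Its nucleotide exchange factor Hsph1 was at -0.93 ± 0.08 (SD, n = 2), and Chordc1, an HSP90 cofactor, at -0.84. Hspa8 and Hsp90aa1, the abundant HSP70 and HSP90, were at -0.55 ± 0.11 (SD, n = 3) and -0.55 ± 0.10 (SD, n = 3), just short of 1.5-fold, and Hspb1 was at 0.14 ± 0.01 (SD, n = 2). Endoplasmic reticulum stress genes had 4 of 36 lower, 0 higher and a median of -0.16. Creld2 read 3342 in Control and 1380 in HF, Dnajb9 was at -0.84 and Manf at -0.64, all of them secretory pathway chaperones or cofactors. The fourth lower gene was the transcription factor Creb3l3, at -0.59, also a PPARα target, and Hspa5, the chaperone BiP, was at -0.51 ± 0.19 (SD, n = 3). The stress factor Ddit3, CHOP, was at -0.15.

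**Figure D4:**
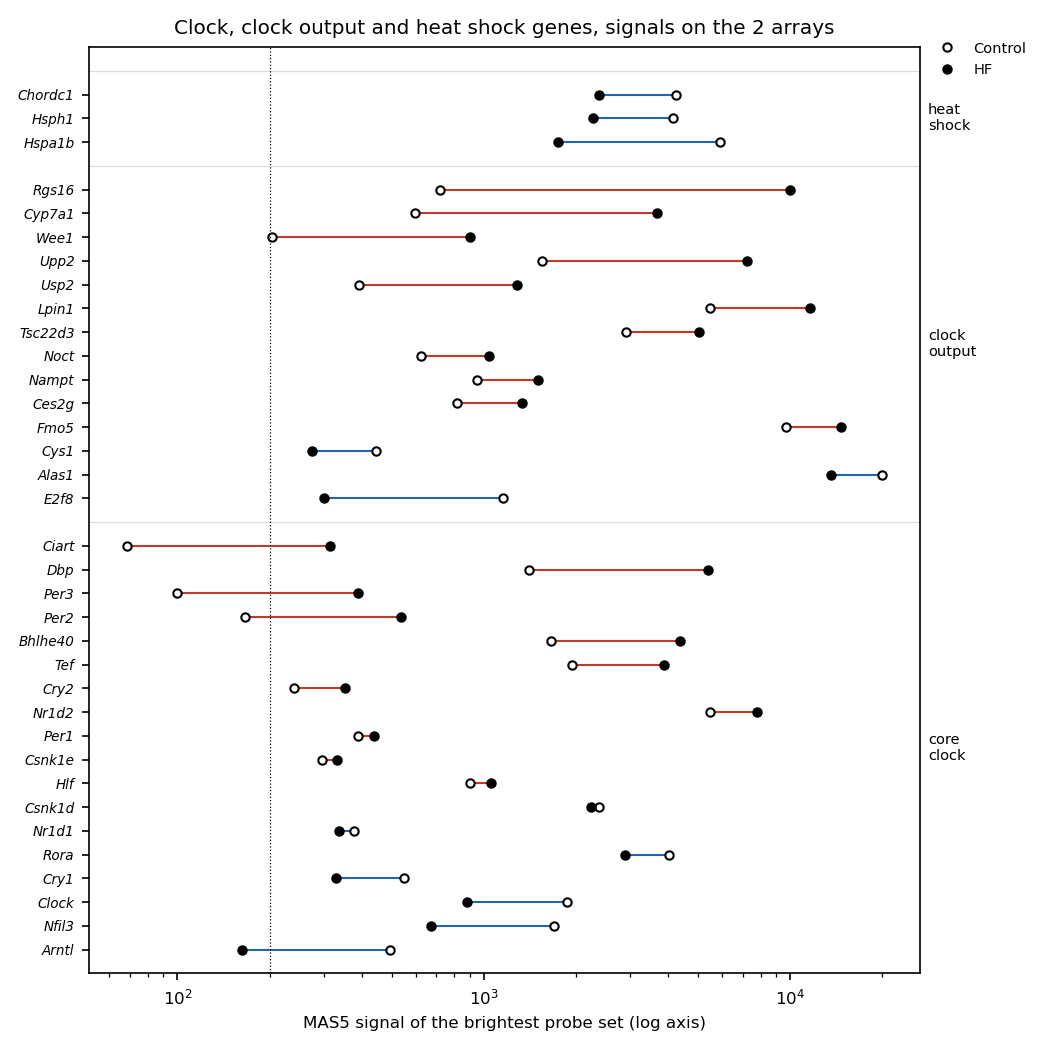
Signals of the brightest probe set in Control (open circles) and HF (filled circles) on a log axis for all core clock genes read, for clock output genes past 1.5-fold and for heat shock genes past 1.5-fold; red lines join genes higher in HF and blue lines genes lower, and the dotted line marks a signal of 200. Dbp, Per2 and Per3 lie higher in HF, and Arntl, Nfil3 and Clock lower.

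Growth arrest genes lay on both sides. Cdkn1a, the cell cycle inhibitor p21, read 2044 in Control and 679 in HF, at -2.0 ± 0.59 (SD, n = 2), Gadd45g 1464 in Control and 356 in HF, and Gadd45b was at least 1.62-fold lower. Gadd45a, of the same family of stress sensors, was at 0.64, the other way. The list of p53, growth arrest and apoptosis genes had 4 higher and 3 lower of 20, with a median of 0.13. Of 14 cell cycle genes 8 were higher and 0 lower, with a median of 0.61 that was 0.16 for genes of signal 500 or more and 0.25 after lowess scaling. Rrm2, a ribonucleotide reductase subunit, was at 0.99 ± 0.19 (SD, n = 3), Cdk6 at 1.04 ± 0.28 (SD, n = 3), and Mcm4, a part of the replicative helicase, at 0.88, with Mcm2 and Mcm6 of the same complex at least 2.43-fold and 1.19-fold higher. The mitotic markers Mki67, Top2a and Cdk1 were under 200 on both arrays, at most 96.1, 127 and 103.

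Macrophage genes lay mostly above 0. Of 28 recruited macrophage genes 18 were higher and 2 lower, and of 22 Kupffer cell genes 5 and 2, with medians of 0.69 and 0.28. Summed signals were 51426 in Control and 63456 in HF for the first list, and 44317 and 45141 for the second. The lower ones of both were Fabp5, Cd9, Id3 and C6. Which cells the higher and the lower genes of these lists came from was not tested.

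Lgals1, galectin 1, read 1476 in Control and 8569 in HF, at 2.54 ± 0.01 (SD, n = 2), and Lgals3, galectin 3 of lipid-laden macrophages, 396 in Control and 864 in HF. Clec7a, dectin 1, read 528 in Control and 958 in HF, Cybb, a subunit of the phagocyte oxidase, was at 0.79 ± 0.46 (SD, n = 3), and Ms4a6c at 1.0. Mmp12, macrophage elastase, reached 201 in HF from 6.33 in Control, too dim for a fold. The receptors Trem2, Ccr2 and Itgax, often used to define these cells, read under 200 on both arrays, at most 97.3, 179 and 194. Of the resident markers Marco, a scavenger receptor, was at 1.49 ± 0.47 (SD, n = 2), Clec4f, which is restricted to Kupffer cells, at 0.10, Timd4 at 0.28, Adgre1, F4/80, at 0.33, and Vsig4 and Cd5l at 0.50 and 0.56. Of 44 lysosomal genes 4 were higher, among them Cd68, a macrophage marker, at 0.78, and 0 lower, shares below the 9.48% and 4.55% of all genes.

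Most genes of antigen presentation by MHC class II that could be read were higher. 6 of 7 genes were higher and 0 lower, with a median of 0.95. H2-Ab1 was at 1.40 ± 0.41 (SD, n = 3) and H2-Aa at 0.95 ± 0.22 (SD, n = 4), the chains of the I-A molecule, and the invariant chain Cd74 read 1557 in Control and 3202 in HF. In MHC class I H2-K1 and B2m were at -0.01 ± 0.11 (SD, n = 4) and -0.01 ± 0.08 (SD, n = 2), while the immunoproteasome subunits Psmb9 and Psmb8 were at 0.98 and 0.71.

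Interferon-inducible genes were higher in part. 9 of 31 were higher and 0 lower, with a median of 0.27. Genes best known as targets of interferon γ were among the higher ones, the chemokines Cxcl9, with 939 in Control and 3012 in HF, and Cxcl10, with 179.7 in Control and 541 in HF, and the guanylate binding proteins Gbp2, Gbp3, Gbp6 and Gbp7, at 1.59 ± 0.41 (SD, n = 2), 0.98, 1.57 ± 0.22 (SD, n = 2) and 0.95 ± 0.34 (SD, n = 2). Igtp, an immunity-related GTPase, was at 0.85. Ifit1 and Irf7, standard targets of type I interferon, were at 0.08 and 0.02. Which interferon, if any, lay behind the values of the list was not tested.

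Few lymphocyte or neutrophil genes could be read. 5 of 22 lymphocyte genes on the array passed, of which 3 were higher and 1 lower, and 2 of 13 neutrophil genes. Ccl5, a chemokine of T and NK cells, read 293 in Control and 754 in HF and Ighm, the heavy chain of IgM, was at 1.03 ± 0.57 (SD, n = 4), while Ptprcap, a partner of the phosphatase CD45, read 203 in Control and 53.4 in HF. The T cell markers Cd3e and Cd8a read at most 33.9 and 165, and the neutrophil markers S100a9 and Mpo at most 80.5 and 80.7.

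Acute phase genes differed by member. Of 30, 10 were higher and 1 was lower, with a median of 0.29. The serum amyloids Saa1, Saa2 and Saa3 read 3351 in Control and 16086 in HF, 493 in Control and 5764 in HF and 603 in Control and 1442 in HF, and Saa1 and Saa2 are so alike in sequence that their probes may share signal. Lcn2, lipocalin 2, which binds bacterial iron carriers and is made by hepatocytes and neutrophils, read 248 in Control and 3022 in HF. Orm2, an acid glycoprotein, was at 1.86 and Serpina3n, a protease inhibitor, at 0.87. Hp, haptoglobin, Crp and Fgb, fibrinogen β, were at -0.11, -0.08 and -0.31, and the inducible Steap4 and Itih4 at 0.54 and -0.10. The lower gene was Hamp, which encodes hepcidin, the hormone that limits iron release into blood, at -1.23 ± 0.12 (SD, n = 2).

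Of 26 genes of iron homeostasis 4 were lower and 0 higher, with a median of -0.05. Hamp read 50840 in Control and 22982 in HF. Id1 and Atoh8, which like it are targets of BMP signalling, were lower too, Id1 with signals of 1298 in Control and 444 in HF and Atoh8 at least 1.71-fold, while Smad7, another such target, was at 0.04 and the iron exporter Slc40a1 at 0.28 ± 0.21 (SD, n = 2). The fourth lower gene, Steap2, a metal reductase, was at -0.80 ± 0.07 (SD, n = 2). In heme and iron-sulfur cluster synthesis 3 of 34 (8.82%) were higher and 1 (2.94%) lower, shares below those of all genes. The lower one was Alas1 and the highest Nubpl, which assembles clusters of respiratory complex I, at 0.86. Of the 34, 21 lay above 0 and 13 below, with a median of 0.11. The study, from the same liver arrays, described genes of these 2 pathways as decreased in HF against Control. It did not list those genes there, so the 2 readings could not be compared gene by gene.

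Matrix and stellate cell genes lay mostly above 0 and were higher in part. Of 34 collagen and matrix genes 14 were higher and 0 lower, and of 23 stellate cell genes 10 and 0, with medians of 0.38 and 0.47. Summed signals of the stellate list were 35233 in Control and 44687 in HF, and those of the matrix list 104537 and 105796. The part of cell numbers in the macrophage, matrix and stellate values was not tested.

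The fibrillar collagens Col3a1 and Col1a2 read 877 in Control and 2851 in HF and 623 in Control and 1577 in HF, and the basement membrane collagens Col4a1 and Col4a2 were at 0.65 ± 0.06 (SD, n = 2) and 0.75. Pcolce, which helps to trim procollagen, was at 1.44 ± 0.81 (SD, n = 2) and Sparc, a collagen-binding protein, at 0.73 ± 0.03 (SD, n = 2). Of the activation markers Acta2, smooth muscle actin, was at 0.88, Tagln, transgelin, at least 1.65-fold higher, and Pdgfrb, a growth factor receptor of these cells, at 0.78. Without the filter on signal Pdgfrb was at -0.55. Genes of quiescent cells stayed nearer to 0, Lrat, which stores retinol as esters, at 0.51 ± 0.15 (SD, n = 2), Reln at 0.43 and Dcn, decorin, at 0.33. Col1a1 and Timp1 read at most 144 and 148 and were not included.

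Genes of annexins, the cytoskeleton and the cell membrane were higher in part, 11 of 31, with 2 lower and a median of 0.45. Anxa2 read 428 in Control and 1963 in HF and Anxa5 3560 in Control and 7093 in HF, both annexins that bind membranes in the presence of calcium. Krt8, a keratin of hepatocytes, was at 1.12 ± 0.15 (SD, n = 3), its partner Krt18 at 0.40, and Vim, vimentin of mesenchymal cells, at 0.97 ± 0.18 (SD, n = 3). The reference Actb was at 0.02 ± 0.07 (SD, n = 2), with signals of 33482 in Control and 32883 in HF.

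Other cell types gave smaller or unreadable differences. Of 30 sinusoidal endothelial genes 3 were higher, 10% and near the share over all genes, and 0 lower. Lyve1, a hyaluronan receptor, was at 1.22 ± 0.19 (SD, n = 2) and Stab2 and Clec4g at 0.49 and -0.13. Of the bile duct list 3 of 13 genes were read, and Krt19, Epcam and Sox9 were at most 105, 129 and 163. Tff3, a trefoil peptide on that list that hepatocytes also make, read 1290 in Control and 151 in HF. Of the muscle list 2 genes were read and 2 were higher, Des, desmin, at least 1.26-fold and Tpm2, β-tropomyosin, at 1.62 ± 0.39 (SD, n = 2), both of which stellate and smooth muscle cells express. The pancreas and erythroid lists had 2 and 3 genes read.

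Hepatocyte genes differed little. Of 17 genes of hepatocyte identity, 0 were higher and 0 lower, 15 lay below 0, and the median was -0.10, positive under lowess scaling, with a summed signal of 768628 in Control and 698951 in HF. Albumin (Alb) was at -0.09, transthyretin (Ttr) at -0.08 ± 0.02 (SD, n = 4) and Hnf4a, the master regulator, at -0.48 ± 0.15 (SD, n = 4). By position in the lobule, 5 of 17 genes of hepatocytes near the central vein were higher and 0 lower. The median was 0.18, with 11 genes above 0 and 6 below. Values ran from Axin2 at -0.25 to Cyp7a1, the bile acid enzyme, at 2.56 ± 0.09 (SD, n = 2). Lect2 was at 0.95, and glutamine synthetase (Glul) stayed within 1.5-fold, at 0.49 ± 0.03 (SD, n = 2). Of 19 periportal genes 1 was higher, Aldh1b1 at 1.53, and 2 were lower, among them Cdh1, E-cadherin, at -0.92. The periportal median of -0.09 was above 0 after quantile or lowess scaling.

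**Figure D5:**
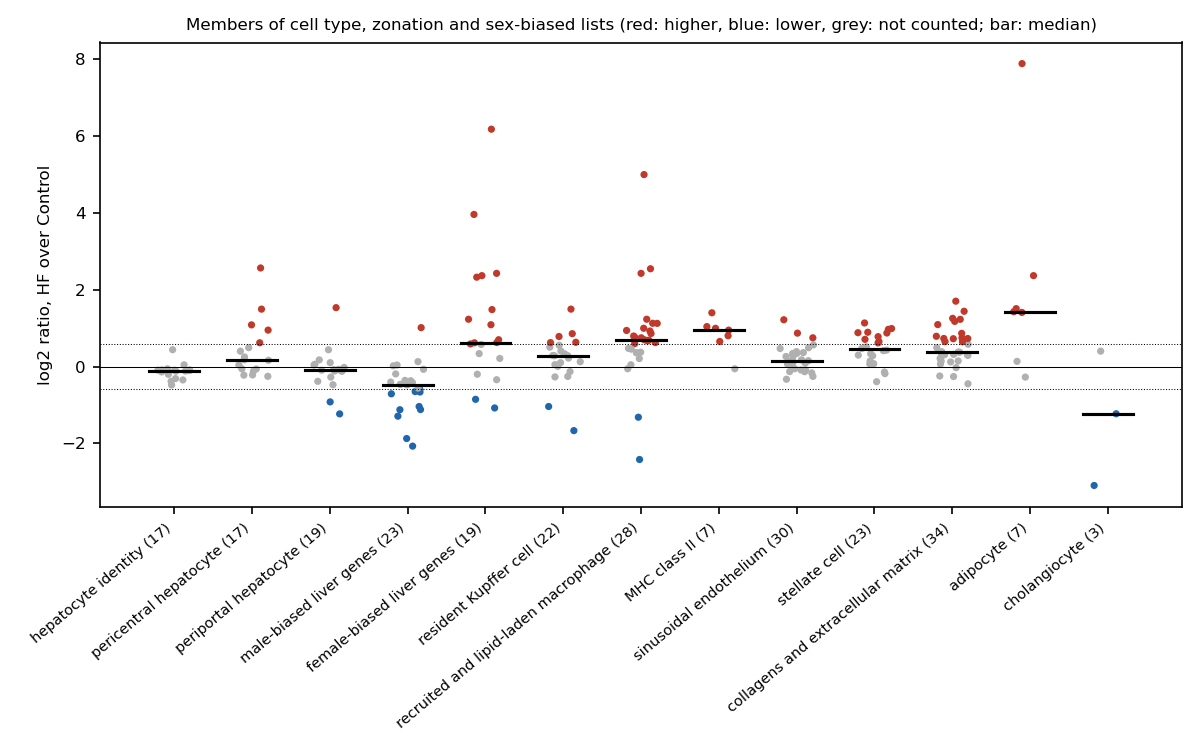
Log2 ratio of HF over Control of each gene read (points; red, higher; blue, lower; grey, not counted) in cell type, zonation and sex-biased lists, with the median as a black bar, the number of genes in parentheses and dotted lines at 1.5-fold. Recruited macrophage, MHC class II, stellate and matrix genes lie mostly above 0, male-biased genes mostly below and hepatocyte identity genes close to 0.

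Secreted proteins of the liver differed in both directions. Of 28 hepatokines, hormones of the liver, 7 were lower and 3 higher, with Inhbc, an inhibin chain, at -0.98 and Angptl4, an inhibitor of lipoprotein lipase, at -0.69. Of 22 complement genes 2 were lower, C8b at -1.29 and C6 at -1.04, both male-biased, and 0 higher, and of 26 coagulation genes 0 were higher and 0 lower. The serpins had 4 higher and 3 lower of 19, with Serpina7, which carries thyroxine, at 1.05, Serpina6, which carries corticosterone, at 0.62 and Serpina11 at -1.18.

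Few genes of protein and energy machinery passed 1.5-fold in the lists used here. From the same arrays the study described a set of mitochondrial genes as lower in HF, also at 1.5-fold. That set came from a collection of mitochondrial genes, MitoCarta, which was not used here. Of 74 mitochondrial ribosomal genes and 37 proteasome genes 0 were higher and 0 lower, with medians of -0.03 and -0.07. Of 73 genes of the respiratory complexes 1 was higher, Atpif1, an inhibitor of the ATP synthase, at 0.69, and the median of -0.05 was above 0 after quantile or lowess scaling. Cytosolic ribosomal genes were below 0 in 38 of 41, with a median of -0.32, though 1 was lower and 1 higher, both dim, Rpl39 and Rpl14. Some mitochondrial carriers differed more. Slc25a30 read 12484 in Control and 3200 in HF, at -2.05 ± 0.14 (SD, n = 4), and Slc25a33, a pyrimidine nucleotide carrier, 1998 in Control and 1005 in HF, while Slc25a10, the dicarboxylate carrier, was at 0.79 ± 0.02 (SD, n = 2). In the phospholipid list Chka, choline kinase, read 2525 in Control and 677 in HF, with its probe sets at -0.98 ± 0.54 (SD, n = 3).

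Outside the lists, and chosen after their values were seen, were further genes past 1.5-fold. Lower in HF were Slc16a1, the lactate and ketone body transporter MCT1, with signals of 13899 in Control and 4970 in HF, Paqr9 with 12845 in Control and 6552 in HF, Phlda1 with 10089 in Control and 4703 in HF, and Hsdl2 and Pxmp4, peroxisomal proteins, at -1.24 ± 0.11 (SD, n = 2) and -1.21 ± 0.17 (SD, n = 2). The pioneer factor Foxa1 read 2599 in Control and 1136 in HF, the kinase Pim3 was at -1.15 ± 0.01 (SD, n = 2), Crem, a factor of cAMP responses, at -1.09 ± 0.31 (SD, n = 2) and Avpr1a, the vasopressin receptor of hepatocytes, at -1.26 ± 0.15 (SD, n = 2). Higher in HF were Arrdc3, an arrestin-related protein, with signals of 2948 in Control and 7016 in HF, Slc16a7, the carrier MCT2, with 1985 in Control and 4396 in HF, Hpgd, which inactivates prostaglandins, at 1.03 ± 0.05 (SD, n = 2), Prnp, the prion protein, at 1.27 ± 0.15 (SD, n = 2), Hsd17b6, a steroid dehydrogenase, at 1.09 and Snai2, a repressor linked to mesenchymal change, with 154 in Control and 901 in HF, at least 4.51-fold higher.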

How the data were processed

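Liver RNA of the Control, HF and HF+SFC groups was measured on 1 array each. Per the labels, total RNA was isolated with RNeasy columns and biotinylated cRNA was made by a 3' in vitro transcription kit. The deposited values are MAS5 signal intensities on a linear scale. The sources used here do not give the MAS5 version or its scaling settings. The mean signal after trimming 2% at each end was equal on the arrays, so the deposited intensity values were used unscaled. The number of arrays, 1 per group, limits the precision, and no test was possible.

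Probe sets with a signal of at least 200 in Control or HF were used. Symbols came from the platform annotation and were updated through Entrez IDs to RefSeq (GRCm38.p6), in which 14930 probe sets matched. Of the Affymetrix control probe sets 57 met the rule and were left out. Gene values are medians over probe sets. Genes counted as higher or lower were past 1.5-fold with no probe set on the other side of 0. The 67 gene lists and the genes were chosen with earlier results of these data known. Named genes were the 15 highest and 15 lowest with 2 or more agreeing probe sets, the 10 highest and lowest at signals of 2000 or more, the largest differences of each list, and members that its name calls for.

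Alternatives were quantile, median-centred and lowess scaling (fraction 0.3), other filters on signal, dim values set to 200, a pseudocount of 16, the brightest probe set, probe sets without shared transcripts, and a 2-fold threshold. Scripts were tested on simulated data. Python 3.11.15, pandas 2.3.3, numpy 2.4.6, statsmodels 0.14.6 and matplotlib 3.10.9 were used.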

Additional observations from a re-analysis of the deposited data

How the results depend on the processing

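No paired analysis was possible because each group had 1 array. Differences between the mice of a group, between hybridisations and in the time of collection cannot be told apart from the diet in these values. Of 22 alternative counts of higher or lower genes, 16 stayed within 1.5 times the reported count. The count of higher genes was 503 where both arrays had to reach 200, 460 at a signal of 500, 3271 with no filter and 271 at 2-fold. The count of lower genes was 2450 with no filter and 118 at 2-fold. Quantile scaling gave 755 higher and 507 lower genes, and lowess 650 and 545. Of 636 alternative list medians, 623 moved by less than the spread between probe sets and 12 by more. A further 1 moved by more and changed sign, where only sign changes of medians past 1.5-fold were counted. Beside those named above, the smaller medians of serpins and of mitochondrial uncoupling and dynamics, at -0.056 and 0.039, changed sign after quantile and lowess scaling. Those of leptin receptor and gp130 genes and of mitochondrial ribosomal genes, at -0.070 and -0.027, did so with no filter. The cell cycle median was 0.25 after lowess, 0.23 with 200 required on both arrays, 0.16 at a signal of 500 and 0.26 with dim values set to 200. The adipocyte median was 0.96 with 200 required on both arrays and 1.0 with no filter. That of chemokines was 0.98 at a signal of 500 and 0.75 with no filter, and that of lymphocyte genes 0.48 with no filter and 0.67 with dim values set to 200. With no filter 3 medians moved by more with a change of sign, as dim probe sets entered them. They were 0.020 for cytochrome P450 families 3, 4 and others, from -0.30, 0.38 for bile duct genes, from -1.23, and -0.11 for erythroid genes, from 0.20. Of 3115 alternative values of named genes 2971 moved by less than that spread and 143 by more. A further 1 moved by more with a change of sign from past 1.5-fold, that of Pdgfrb, which was -0.55 with no filter. After quantile and after lowess scaling 9 genes counted above as past 1.5-fold, Agpat2, Creb3l3, Crot, Cux2, Cyp4a12a, Cyp7b1, Fh1, Gadd45a and Rpl14, lay within it.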
